A study of Mus musculus with 6 samples.

Results

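The collagen genes of the array were followed in mouse podocytes labelled as carrying a Tug1 hairpin or a scrambled one (Tug1 is a long noncoding RNA). Members were all genes whose RefSeq symbol is Col, a number, the letter a and a number, found through the transcript accession that the scanner files give for each probe. They were 43 of 20659 genes with a symbol, read by 63 probes, with 1 probe for 29 genes and several for 14. The RefSeq table holds 44 such symbols, and Col12a1 was not matched to a probe and was not analysed here.

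The arrays held 3 lines of cells, with 2 arrays each. The shTug1 clone 2 and shTug1 clone 3 lines are independent clones transduced with a pGIPZ lentivirus that carries a short hairpin RNA against Tug1, and shControl cells carried a scrambled hairpin from the same vector. All 3 are podocytes immortalised with a temperature-sensitive SV40 T antigen, grown at 33 °C, moved to 37 °C and harvested after 10 days of differentiation. Podocytes form the epithelial layer around the capillaries of the glomerulus and share a basement membrane with the endothelium. The series calls the arrays of a group biological replicates, so the 2 arrays of a clone come from 1 line each. RNA was labelled with Cy3 and hybridised to 6 one-colour Agilent arrays.

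Collagens are trimers of chains wound into a triple helix. Fibrillar collagens build the cables of interstitial matrix, whereas type IV chains join end to end into the network of basement membranes. In the mature glomerulus podocytes lay down the network of the Col4a3, Col4a4 and Col4a5 chains, which replaces the network of Col4a1 and Col4a2 chains laid down earlier in development. Mutations in the genes of that mature network cause Alport syndrome in humans. The type IV genes lie in head-to-head pairs, Col4a1 with Col4a2, Col4a3 with Col4a4 and Col4a5 with Col4a6.

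A log2 level below is the log2 processed signal of a probe minus that of the 75th percentile of its array, and a difference is between group means of such levels. The 75th percentile itself was 1055 and 949.3 on the clone 2 arrays and 569.2 and 831.6 on the clone 3 arrays, against 324.3 and 363.3 on the shControl arrays. Between 58.2% and 68% of probes were well above background, and no gene spot was saturated. By the scan and the array positions in the file headers, the 4 arrays labelled shTug1 lay on 1 slide and both shControl arrays on another, so against shControl the hairpin and the slide cannot be told apart. On the first principal component, which held 70.3% of the variance, shControl replicate 1 stood at −175.2 and shControl replicate 2 at −56.1. The Tug1 probe above background on all arrays had log2 levels of −1.86 and −1.88 in clone 2 and −3.10 and −3.23 in clone 3, against −2.88 and −2.49 in shControl. Neither clone differed from shControl there (log2 difference 0.81, adjusted p = 0.0798, for clone 2 and −0.48, adjusted p = 0.321, for clone 3), and clone 2 lay above both shControl arrays, so the target gene does not bear out the label, and the clones below are the arrays labelled with those names. Of the other Tug1 probes, 1 was above background on 3 arrays and 1 on none. The first of these had log2 levels of −2.73 and −2.94 in clone 2 and −6.36 and −3.58 in clone 3, against −6.21 and −6.38 in shControl.

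Podocyte markers were present at varied levels. Of 15 podocyte markers 12 could be tested, Nphs1, Wt1 and Synpo among them, while Podxl, Trpc6 and Tcf21 were not well above background in any whole group. The summed linear level of the list, in units of the 75th percentile, was 63.7 to 72.2 in the clones, against 123 and 140 in shControl, and 6 markers fell, where 30.4% of all genes did. Of 10 mesangial and stromal markers 6 were tested, with a summed level of 387 to 576 in the clones, against 1020 and 1060 in shControl, a sum made up mostly of Acta2 and Tagln, and 3 fell. Pdgfra, Des, Thy1 and Itga8 did not pass the filter on dim probes, nor did Cdh5, Tek and Emcn of 8 endothelial markers, whose summed level was 2.73 to 3.46 in the clones, against 6.49 and 6.02 in shControl. The tubular and parietal list (7 of 10 tested) summed to 30.8 to 53.7 in the clones, against 106 and 109 in shControl, and the immune list (6 of 7 tested) to 3.55 to 5.72, against 29.8 and 14.3. All 5 sums were lower on every clone array than on both shControl arrays, and their part in the collagen differences below was not tested. In cultures, fewer cells of a type and less RNA per cell cannot be told apart.

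As a list, the collagens stood near the whole array. Of the 43 genes 32 had a probe well above background in both arrays of at least 1 group and were tested, so the list below is not all collagens. In the mean of the clones minus shControl, 2 rose, 11 fell and 19 did not pass (limma, adjusted p under 0.05 over 21470 genes), where 10.2% of all genes rose and 30.4% fell (40.6% either way). The median collagen difference was −0.60, beside −0.64 for the median gene. Clone 2 minus shControl gave 2 higher and 9 lower of 32, beside 10.2% and 33.8% of all genes (44% either way), with a median of −0.78, beside −0.80. Clone 3 minus shControl gave 1 higher and 1 lower, beside 4.35% and 4.68% of all genes (9.03% either way), with a median of −0.47, beside −0.46. Clone 3 minus clone 2, both on 1 slide, gave 1 higher (Col6a4, which was above background in clone 3 alone) and 0 lower in limma, beside 0.345% and 0.922% of all genes (1.27% either way). Groups of arrays that did not overlap were also near the background. In the mean comparison 3 collagens lay wholly higher and 13 wholly lower, beside 12.3% and 43.1% of all genes. Clone 2 minus shControl gave 5 and 19, beside 18% and 61.5%, clone 3 minus shControl 6 and 15, beside 17.1% and 47.8%, and clone 3 minus clone 2 gave 15 and 4, beside 58.9% and 16.4%. Both clones are set against the same 2 shControl arrays, and the median gene was lower in both. Of 32 differences 25 had the same sign in both clones and 7 had opposite signs. Relative to the median gene these counts were 24 and 8. The share over all genes was not counted, so the counts are not read as a trait of the collagens.

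**Figure D1:**
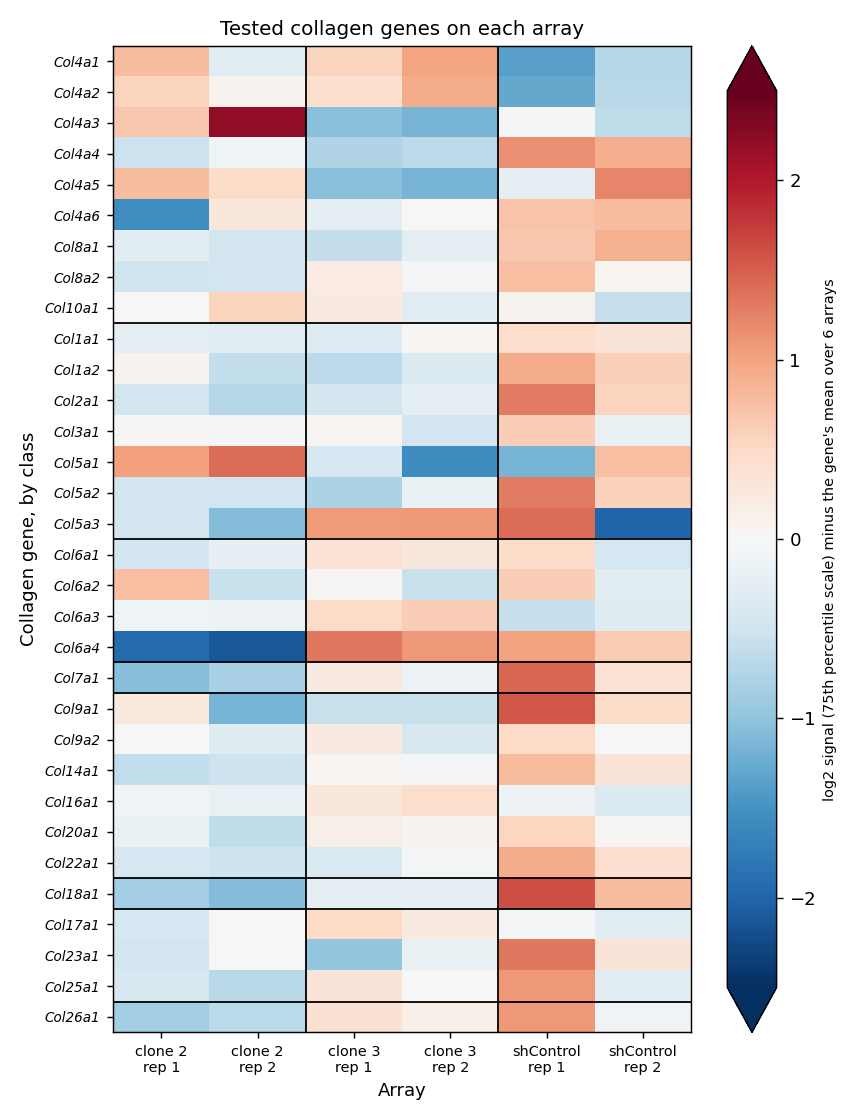
Log2 level of each of the 32 tested collagens (rows, by class, with lines between the classes network, fibrillar, beaded filament, anchoring fibril, fibril-associated, multiplexin, transmembrane and other) on each of the 6 arrays (columns), minus the mean of that gene over the arrays; red is above and blue below that mean. Col4a1 and Col4a2 are red or near 0 on the 4 clone arrays and blue on both shControl arrays, whereas Col4a4, Col8a1, Col5a2 and Col18a1 are blue or near 0 in the clones and red in shControl.

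Because the median gene itself was lower in the clones, each difference is also given relative to it. By that measure 17 of 32 collagens lay above and 15 below the median gene in the mean comparison. The size of the shift depends on the scaling: the median gene differed by −0.64 here, −0.27 after quantile normalization, −0.75 after normexp background correction and −0.29 in the deposited series values. The share of calls that were rises over all genes was 25.1%, 42%, 13.4% and 34.6% in that order. Falls numbered 11, 6 and 19 of 32 collagens, and 7 of 27 in the deposited values. Over all genes 30.4%, 15.7%, 59.3% and 20.6% fell, in the same order. Without shTug1 clone 3 replicate 1 or without shTug1 clone 3 replicate 2, no collagen passed in the mean comparison, and far fewer of all genes passed than with all arrays. The median gene then differed by −0.66 and −0.61. Without shControl replicate 1, 1 collagen rose and 6 fell, beside 7.63% and 15.9% of all genes, and without shControl replicate 2, 3 rose and 16 fell, beside 15.1% and 51.4%. Without either clone 2 array, 2 rose and 7 fell, beside 8.5% to 8.91% and 18.8% to 21.8% of all genes. In each of these fits the group that lost an array has 1 left, which is assumed to vary like the other groups, here and below.

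The clearest rise was in Col4a1 and Col4a2, which encode the 2 chains of the ubiquitous type IV network. Each of these genes was read by 1 probe, so no second probe could check the rise. Col4a1 had log2 levels of 4.27 and 3.23 in clone 2 and 4.05 and 4.48 in clone 3, against 2.13 and 2.78 in shControl. Col4a2 had 3.15 and 2.68 in clone 2 and 2.99 and 3.52 in clone 3, against 1.32 and 1.90 in shControl. For both genes all 4 clone arrays lay above both shControl arrays, and the clones overlapped each other. Col4a1 averaged 3.75 ± 0.74 in clone 2 and 4.26 ± 0.30 in clone 3, against 2.46 ± 0.46 in shControl (SD, n = 2 each). Col4a2 averaged 2.91 ± 0.34 in clone 2 and 3.26 ± 0.38 in clone 3, against 1.61 ± 0.41 in shControl (SD, n = 2 each). The mean of the clones exceeded shControl by 1.55 (SE 0.40, adjusted p = 0.0233) for Col4a1 and 1.47 (SE 0.34, adjusted p = 0.0191) for Col4a2, which is 2.19 and 2.11 above the median gene.

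Taken clone by clone, Col4a2 passed in both, with 1.30 (adjusted p = 0.0337) in clone 2 and 1.64 (adjusted p = 0.0451) in clone 3. Col4a1 differed by 1.29 (adjusted p = 0.053) and 1.81 (adjusted p = 0.0508) and passed in neither. Before scaling, on clone arrays that were brighter in general, the processed signals of Col4a1 read 20300 and 8880 in clone 2 and 9430 and 18500 in clone 3, against 1420 and 2500 in shControl. Col4a2 read 9380 and 6070 in clone 2 and 4520 and 9570 in clone 3, against 812 and 1360 in shControl. Between the clones the genes differed by 0.52 (SE 0.46, adjusted p = 0.497) and 0.34 (SE 0.40, adjusted p = 0.589), so no difference between the clones was detected. The mean-comparison calls were lost without shControl replicate 1 (1.22, adjusted p = 0.111, for Col4a1 and 1.18, adjusted p = 0.0604, for Col4a2), without clone 3 replicate 1 (1.66, adjusted p = 0.0622, and 1.60, adjusted p = 0.0562) and without clone 3 replicate 2 (1.44, adjusted p = 0.0898, and 1.34, adjusted p = 0.0817). The Col4a2 call in clone 3 was lost with no filter on dim probes (adjusted p = 0.0693). Both of its single-clone calls were lost without shControl replicate 1 (1.01 in clone 2, 1.35 in clone 3) and without either array of clone 3 (1.30 in clone 2 both times, 1.91 and 1.37 in clone 3); in clone 2 also without either of its own arrays (1.06 and 1.54).

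The promoters of the pair are shown because both genes rose and their start sites adjoin. RefSeq windows (GRCm38.p6), from 250 bases before to 50 after each start, were given for 5 of the 6 type IV genes. Letters are lower case, with motif matches on either strand in capitals. The motifs searched were the CCAAT box, spelled by its name, the GC box, with the letters GGGCGG, and the usual core of the TATA element, which is spelled TATAAA.
Col4a1, chr8:11312777-11313076, minus strand: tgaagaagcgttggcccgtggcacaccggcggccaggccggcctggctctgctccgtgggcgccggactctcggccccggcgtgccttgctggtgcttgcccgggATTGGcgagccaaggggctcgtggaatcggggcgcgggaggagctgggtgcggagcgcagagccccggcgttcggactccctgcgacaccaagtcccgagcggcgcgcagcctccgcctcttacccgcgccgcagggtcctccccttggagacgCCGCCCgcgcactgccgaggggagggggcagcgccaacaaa
Col4a2, chr8:11312555-11312854, plus strand: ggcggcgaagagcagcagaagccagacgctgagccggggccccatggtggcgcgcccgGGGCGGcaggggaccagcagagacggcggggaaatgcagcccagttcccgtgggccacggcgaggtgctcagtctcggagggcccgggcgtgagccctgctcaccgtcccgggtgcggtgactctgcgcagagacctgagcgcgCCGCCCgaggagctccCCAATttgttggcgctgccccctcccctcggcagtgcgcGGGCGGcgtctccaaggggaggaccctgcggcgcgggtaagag
The annotated starts lie 21 bases apart on opposite strands, with each gene reading through the start of the other, and the last 78 bases of the 2 windows are the same DNA. Each window holds 1 CCAAT box, at −145 from the start of Col4a1 and at −32 from that of Col4a2. GC boxes number 1 in the Col4a1 window and 3 in the Col4a2 window, and the 1 of Col4a1 lies in the shared stretch and is counted in both. Neither holds TATAAA. Over 32851 RefSeq promoter windows of mouse, 37.4% hold CCAAT, 35.7% GGGCGG and 13.6% TATAAA, so these matches are common and describe the letters alone.

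Col4a4 fell in both clones, the opposite of Col4a1 and Col4a2. It encodes a chain of the mature glomerular network. Its log2 levels were 0.87 and 1.29 in clone 2 and 0.64 and 0.75 in clone 3, against 2.54 and 2.30 in shControl. No clone array reached a shControl array. The mean of the clones differed from shControl by −1.53 (SE 0.30, adjusted p = 0.0144), which is −0.90 relative to the median gene. Clone 2 differed by −1.34 (adjusted p = 0.0213) and clone 3 by −1.73 (adjusted p = 0.0328). Before scaling the groups overlapped: the processed signal was 1920 and 2320 in clone 2 and 888 and 1400 in clone 3, against 1890 and 1790 in shControl, so in clone 2 the unscaled signals were not below shControl. A second Col4a4 probe was above background on all 4 clone arrays and on neither shControl array, the opposite direction; averaging the kept probes left −0.53 in the mean comparison (adjusted p = 0.15), −0.43 in clone 2 and −0.63 in clone 3, none of which passed. The mean-comparison call was also lost without clone 3 replicate 1 (−1.51, adjusted p = 0.0564) or replicate 2 (−1.56, adjusted p = 0.0652), and the clone 2 call after quantile normalization (−0.91, adjusted p = 0.0538), without either clone 2 array (−1.13 and −1.56) and without either clone 3 array (−1.34 both times). In clone 3 the call was lost without either of its arrays (−1.67 and −1.78) and with no filter on dim probes (−1.73, adjusted p = 0.053). In the deposited series values clone 2 differed by −0.86.

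Its head-to-head partner Col4a3 did not follow it. Col4a3 had log2 levels of −2.88 and −1.34 in clone 2 and −4.59 and −4.72 in clone 3, against −3.60 and −4.18 in shControl. After scaling, the 2 clones lay on opposite sides of shControl without overlap. The shControl levels were near the lowest signals well above background on those arrays (−4.09 and −4.5). Clone 2 rose by 1.78 (SE 0.53, adjusted p = 0.0308), while clone 3 differed by −0.76 (SE 0.53, adjusted p = 0.318). Relative to the median gene these differences were 2.58 and −0.30. The difference itself, clone 3 minus clone 2, was −2.55 (SE 0.53) and missed the threshold (adjusted p = 0.0777). Without clone 2 replicate 1, which leaves 1 clone 2 array and no spread of that group, it stood at −3.31 (adjusted p = 0.00762). The rise in clone 2 was lost after normexp background correction (0.36, adjusted p = 0.395), without clone 2 replicate 2 (1.02, adjusted p = 0.194), without shControl replicate 1 (2.07) or 2 (1.49) and without either clone 3 array (1.78 both times). The processed signals were 144 and 374 in clone 2 and 23.6 and 31.5 in clone 3, against 26.7 and 20 in shControl. That places the second clone 2 array above all others, and clone 3 overlapped shControl before scaling.

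Col4a5, the X-linked chain of the mature network, also separated the clones. Its log2 levels were 4.85 and 4.54 in clone 2 and 3.02 and 2.92 in clone 3, against 3.82 and 5.29 in shControl. Clone 3 lay below both shControl arrays, and clone 2 lay between them. Clone 3 differed from shControl by −1.58 (SE 0.50, adjusted p = 0.0766) and clone 2 by 0.14 (SE 0.50, adjusted p = 0.818); clone 3 minus clone 2 was −1.72 (SE 0.50, adjusted p = 0.221). None passed with all arrays, and the 1.04 SD of shControl was wider than that of either clone (0.22 in clone 2, 0.07 in clone 3). In a fit of the 4 arrays labelled shTug1 alone, which lie on 1 slide, clone 3 minus clone 2 passed (−1.72, adjusted p = 0.0354). The sign in clone 2 turned without shControl replicate 1 (−0.59) and without clone 2 replicate 1 (−0.01). Without shControl replicate 2 clone 2 stood at 0.88, and clone 3 stood at −2.32 without shControl replicate 1 and −0.85 without shControl replicate 2. Those fits hold 1 shControl array, so they leave out the spread of shControl, and their adjusted p (0.0289, 0.0421 and 0.0409) are not read as calls.

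Col4a6 encodes the chain that joins Col4a5 in other basement membranes, such as that of Bowman's capsule. Its log2 levels were −0.14 and 1.69 in clone 2 and 1.18 and 1.41 in clone 3, against 2.13 and 2.19 in shControl. After scaling, all 4 clone arrays were below shControl, and clone 2 replicate 1 was the lowest. The unscaled signals overlapped, at 956 and 3060 in clone 2 and 1290 and 2210 in clone 3, against 1420 and 1660 in shControl. The mean of the clones differed by −1.13 (SE 0.49, adjusted p = 0.098), clone 2 by −1.39 (adjusted p = 0.0783) and clone 3 by −0.87 (adjusted p = 0.295). Its second probe, above background on all arrays, differed by −1.78, and the mean of both probes passed (−1.45, adjusted p = 0.0193). Without clone 2 replicate 2, which leaves 1 clone 2 array, the used probe stood at −1.59.
The windows at the starts of the X-linked pair are shown for contrast with the first pair, since they do not overlap.
Col4a5, chrX:141475169-141475468, plus strand: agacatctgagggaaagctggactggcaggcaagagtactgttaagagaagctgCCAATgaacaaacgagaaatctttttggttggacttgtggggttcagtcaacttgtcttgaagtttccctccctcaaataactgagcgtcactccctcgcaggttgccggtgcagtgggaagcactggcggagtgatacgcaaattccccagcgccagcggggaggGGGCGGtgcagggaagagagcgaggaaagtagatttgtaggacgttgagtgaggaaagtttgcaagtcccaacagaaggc
Col4a6, chrX:141474027-141474326, minus strand: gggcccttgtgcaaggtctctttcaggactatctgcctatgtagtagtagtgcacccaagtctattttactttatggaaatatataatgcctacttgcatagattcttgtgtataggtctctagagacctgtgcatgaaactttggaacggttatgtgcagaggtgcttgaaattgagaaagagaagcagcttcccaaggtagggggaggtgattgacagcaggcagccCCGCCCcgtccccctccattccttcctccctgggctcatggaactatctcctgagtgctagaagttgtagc
These starts lie 1343 bases apart. The Col4a5 window holds 1 CCAAT box and 1 GC box, and the Col4a6 window 1 GC box; neither holds TATAAA. The Col4a4 window holds none of the 3 motifs, which says only that these letters are not within it.

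**Figure D2:**
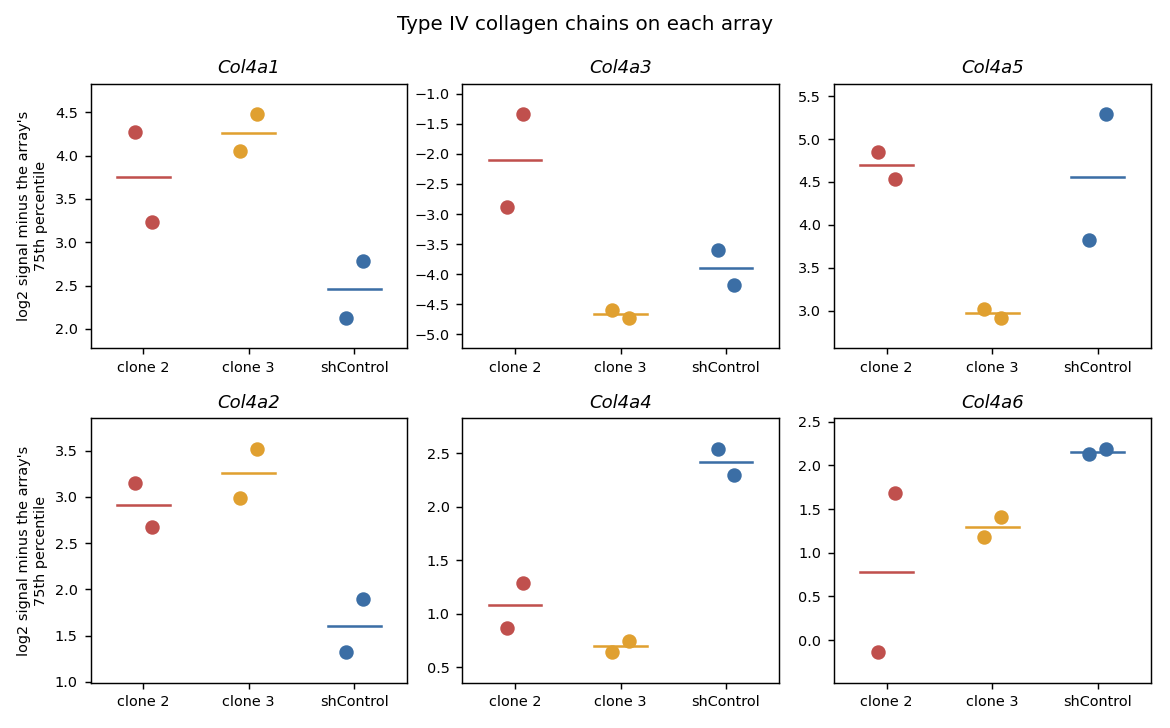
Log2 level (vertical axis, log2 signal minus the 75th percentile of the array; each panel has its own range) of the 6 type IV genes on each array of clone 2, clone 3 and shControl; points are arrays and bars group means (n = 2). Each column of panels holds a head-to-head pair: Col4a1 and Col4a2 are high in both clones, Col4a3 is high in clone 2 alone while Col4a4 is low in both clones, and Col4a5 is low in clone 3 while Col4a6 is below shControl in both.

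The other network collagens were type VIII and type X. Col8a1, a chain of the short-chain lattice found beneath endothelia, had log2 levels of 2.54 and 2.35 in clone 2 and 2.21 and 2.57 in clone 3, against 3.49 and 3.71 in shControl. It fell by 1.18 in the mean comparison (SE 0.29, adjusted p = 0.0217), which is −0.54 relative to the median gene. The clone arrays lay together below shControl, but the unscaled signals of 6150 and 4840 in clone 2 and 2630 and 4950 in clone 3, against 3650 and 4740 in shControl, did not separate. The call was lost after quantile normalization (−0.57, adjusted p = 0.171), in the deposited series values (−0.56, adjusted p = 0.147), without either clone 2 array (−1.23 and −1.13) and without either clone 3 array (−1.09 and −1.27). In clone 2 alone it fell by 1.15 (adjusted p = 0.0307), lost under the same 6 settings (−0.38 after quantile normalization and in the deposited series values, −1.25 and −1.06 without a clone 2 array, −1.15 without a clone 3 array). Its partner chain Col8a2 differed by −0.60 (adjusted p = 0.158). Col10a1, the chain of hypertrophic cartilage, was above background in both clones and in neither shControl array, so no difference is given.

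Among fibrillar collagens 7 of 11 genes were tested, and in the mean comparison 3 fell and 4 did not pass, where 30.4% of all genes fell. Col11a1 and Col24a1 were above background on no array, and Col11a2 and Col27a1 on 1 array each. Col5a2, a chain of the type V fibrils that nucleate type I fibrils, had log2 levels of 0.48 and 0.45 in clone 2 and 0.15 and 0.77 in clone 3, against 2.24 and 1.50 in shControl. It fell by 1.41 (SE 0.35, adjusted p = 0.0214), −0.77 relative to the median gene, and by 1.41 in each clone (adjusted p = 0.0281 in clone 2 and 0.0638 in clone 3). After scaling, all 4 clone arrays lay below shControl, and the 2 clones did not separate. The unscaled signals overlapped, at 1470 and 1290 in clone 2 and 632 and 1420 in clone 3, against 1530 and 1030 in shControl. The Col5a2 call was lost without shControl replicate 1 (−1.04, adjusted p = 0.0648) and without clone 3 replicate 1 (−1.25) or 2 (−1.56), and that of clone 2 without shControl replicate 1 (−1.04) and without any 1 clone array (−1.42 to −1.39).

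Its partner Col5a1 passed in no comparison and varied widely. Col5a1 had log2 levels of 1.85 and 2.22 in clone 2 and 0.40 and −0.74 in clone 3, against −0.33 and 1.58 in shControl. Clone 2 lay above both shControl arrays, clone 3 overlapped them, and the shControl arrays lay far apart. Clone 2 differed by 1.41 (SE 0.66, adjusted p = 0.11), clone 3 by −0.80 (adjusted p = 0.402), and clone 3 minus clone 2 was −2.20 (SE 0.66, adjusted p = 0.241), none past the threshold. The other type V chain, Col5a3, was above background in both clone 3 arrays, in 1 of 2 shControl arrays and in neither clone 2 array. Its probe entered the test only through clone 3. With the dim clone 2 arrays bounded, the estimate was at least 3.42-fold higher in clone 3 than in clone 2. That difference did not pass (limma, adjusted p = 0.383), so no rise is read from it.

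Type I collagen, the main fibril of interstitial matrix, is built of Col1a1 and Col1a2 chains. Col1a2 had log2 levels of −3.51 and −4.20 in clone 2 and −4.25 and −3.94 in clone 3, against −2.67 and −2.99 in shControl. After scaling, every clone array was below both shControl arrays. The unscaled signals overlapped, at 92.6 and 51.6 in clone 2 and 29.9 and 54.1 in clone 3, against 50.8 and 45.7 in shControl. Col1a2 fell by 1.15 (SE 0.33, adjusted p = 0.031), −0.51 relative to the median gene, and passed in neither clone alone. Col1a1 differed by −0.56 (SE 0.29, adjusted p = 0.147), which is 0.08 relative to the median gene. The Col1a2 call was lost after quantile normalization (−0.91, adjusted p = 0.0535), without shControl replicate 1 (−0.99), without clone 2 replicate 2 (−0.97) and without clone 3 replicate 1 (−1.07) or 2 (−1.22).

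Col2a1, the fibril of cartilage, was dim but above background on all 6 arrays, with log2 levels of −4.07 and −4.32 in clone 2 and −4.06 and −3.84 in clone 3, against −2.31 and −3.05 in shControl. It fell by 1.39 (SE 0.33, adjusted p = 0.0196), −0.75 relative to the median gene, and in clone 2 by 1.52 (adjusted p = 0.0201). The groups did not overlap after scaling, whereas the unscaled signals of 62.7 and 47.4 in clone 2 and 34.2 and 58.2 in clone 3, against 65.2 and 44 in shControl, did. Its calls were lost without clone 3 replicate 1 (−1.34 in the mean comparison, −1.52 in clone 2) or 2 (−1.45 and −1.52), and that of clone 2 also without clone 2 replicate 1 (−1.64) or 2 (−1.39). Col3a1, the reticular fibril, differed by −0.32 (adjusted p = 0.463).

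Of the beaded-filament type VI collagens, which link cells to the matrix around them, 4 of 6 genes were tested, and Col6a5 and Col6a6 were above background on no array. Col6a1, Col6a2 and Col6a3, the chains of the classical trimer, differed by −0.02, −0.26 and 0.66 in the mean comparison (adjusted p = 0.958, 0.654 and 0.0962). Col6a3 had log2 levels of −1.38 and −1.41 in clone 2 and −0.80 and −0.66 in clone 3, against −1.85 and −1.58 in shControl. It lay above shControl on all 4 clone arrays but did not pass.

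Col6a4, a further type VI chain, was measured well above background in clone 3 alone. Its log2 levels were −4.21 and −4.45 in clone 3, against −7.45 and −7.64 in clone 2, with −4.53 and −4.90 in shControl. With the dim side set to the lowest signal well above background on its arrays, it was at least 2.43-fold higher in clone 3 than in clone 2. The fit gave 3.21 (SE 0.34, adjusted p = 0.0133), but the probe entered the test only through clone 3, so that p depends on the filter. The call was lost after normexp background correction (1.01, adjusted p = 0.111) and without clone 3 replicate 1 (3.10, adjusted p = 0.174) or 2 (3.33, adjusted p = 0.0732). In the mean comparison and in clone 2 minus shControl it counts among the falls, but shControl was not well above background, so no fold is given there. A second Col6a4 probe was dim on all 6 arrays.

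Col7a1, the anchoring fibril that ties basement membrane to stroma in skin, had log2 levels of 0.35 and 0.61 in clone 2 and 1.64 and 1.27 in clone 3, against 2.84 and 1.77 in shControl. After scaling, clone 2 was lowest and clone 3 lay between it and shControl. The unscaled signals overlapped, at 1350 and 1450 in clone 2 and 1770 and 2010 in clone 3, against 2320 and 1240 in shControl. The mean comparison gave −1.33 (SE 0.38, adjusted p = 0.0292), −0.70 relative to the median gene. Clone 2 fell by 1.82 (SE 0.44, adjusted p = 0.0184), clone 3 differed by −0.85 (adjusted p = 0.195), and clone 3 minus clone 2 was 0.97 (SE 0.44, adjusted p = 0.383). The mean-comparison call was lost without shControl replicate 1 (−0.80), without clone 2 replicate 1 (−1.27) and without clone 3 replicate 1 (−1.43) or 2 (−1.24), and that of clone 2 without clone 2 replicate 1 (−1.69). Col28a1 was above background on no array.

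Col18a1 had the largest fall of the tested collagens in the mean comparison. It encodes the heparan sulfate collagen of basement membranes whose C-terminal fragment is endostatin. Its log2 levels were 4.74 and 4.50 in clone 2 and 5.37 and 5.37 in clone 3, against 7.21 and 6.36 in shControl. The 3 groups did not overlap, and clone 2 was lowest. The mean of the clones differed by −1.79 (SE 0.34, adjusted p = 0.0138), −1.15 relative to the median gene. Clone 2 fell by 2.17 (SE 0.39, adjusted p = 0.0125), and clone 3 differed by −1.41 (SE 0.39, adjusted p = 0.0598). A second probe differed the same way by −2.05. Before scaling, the signals were 28200 and 21400 in clone 2 and 23500 and 34400 in clone 3, against 48100 and 29700 in shControl, with clone 3 replicate 2 above shControl replicate 2. In clone 2 the call held under all 13 alternatives, at −1.03 after quantile normalization, and the mean-comparison call was lost without clone 3 replicate 1 (adjusted p = 0.0525) or 2 (adjusted p = 0.0629), at −1.79 both times. Quantile normalization and the deposited series values brought the mean comparison to −0.92 and −0.88, both past the threshold. Its relative Col15a1 was above background on no array.

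Fibril-associated collagens with interrupted helices decorate the surface of fibrils, and 6 of 8 genes were tested; Col9a3 and Col19a1 were above background on no array. In the mean comparison 2 fell (30.4% of all genes did), Col9a1 and Col22a1, and Col14a1 fell in clone 2. Col9a1, which coats cartilage fibrils, had log2 levels of −2.75 and −4.17 in clone 2 and −3.55 and −3.56 in clone 3, against −1.44 and −2.54 in shControl. It fell by 1.52 (SE 0.48, adjusted p = 0.0401), −0.88 relative to the median gene, with no overlap but a wide spread within clone 2 and within shControl. The unscaled signals overlapped, at 156 and 52.7 in clone 2 and 48.5 and 70.7 in clone 3, against 120 and 62.7 in shControl. The call was lost under 7 of 13 alternatives, among them without shControl replicate 1 (−0.97, adjusted p = 0.241), without clone 2 replicate 2 (−1.17), without either clone 3 array (−1.52 both times), after quantile normalization (−1.40) and in the deposited series values (−1.36).

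Col22a1, a collagen of tissue junctions, had log2 levels of −3.93 and −4.02 in clone 2 and −3.89 and −3.54 in clone 3, against −2.59 and −3.09 in shControl. It fell by 1.01 (SE 0.31, adjusted p = 0.0363), −0.37 relative to the median gene, and in clone 2 by 1.14 (adjusted p = 0.0364), which was lost after quantile normalization (−0.85, adjusted p = 0.054). Col14a1, which binds fibrils in skin and tendon, had log2 levels of −4.20 and −4.10 in clone 2 and −3.54 and −3.63 in clone 3, against −2.79 and −3.26 in shControl. It fell in clone 2 by 1.13 (SE 0.34, adjusted p = 0.0336), −0.33 relative to the median gene, and differed in clone 3 by −0.56 (adjusted p = 0.268). For both genes the clones lay below shControl by little more than the median gene did. Without 1 array the Col22a1 call was lost for any array but shControl replicate 2 (−1.09 to −0.76 in the mean comparison, −1.18 to −0.89 in clone 2), and that of Col14a1 for any clone array (−1.18 to −1.07). With no filter on dim probes none of these 3 calls passed (adjusted p = 0.0517 and 0.0544 for Col22a1, 0.0511 for Col14a1). Of the rest, Col16a1 was 0.35 (adjusted p = 0.331), which is 0.98 above the median gene, and Col9a2 and Col20a1 passed in no comparison.

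Transmembrane collagens are cell-surface proteins with a collagenous ectodomain, and 3 of 4 genes were tested; Col13a1 was above background on no array. Col23a1 had log2 levels of −4.61 and −4.14 in clone 2 and −5.09 and −4.32 in clone 3, against −2.81 and −3.81 in shControl. It was above background on 3 of 4 clone arrays and on both shControl arrays. The unscaled signals overlapped, at 43.3 and 53.8 in clone 2 and 16.7 and 41.7 in clone 3, against 46.3 and 25.9 in shControl. Col23a1 fell by 1.23 (SE 0.41, adjusted p = 0.0449), −0.59 relative to the median gene, and passed in neither clone alone. That call was lost after quantile normalization (−0.93), without shControl replicate 1 (−0.73, adjusted p = 0.209), without clone 2 replicate 1 (−1.11) and without clone 3 replicate 1 (−1.04) or 2 (−1.42). Col17a1, the hemidesmosome collagen, was above background in neither shControl array, so no difference is given. Col25a1 differed by −0.60 (adjusted p = 0.268). Col26a1, of no class above, differed by −0.74 (adjusted p = 0.147).

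**Figure D3:**
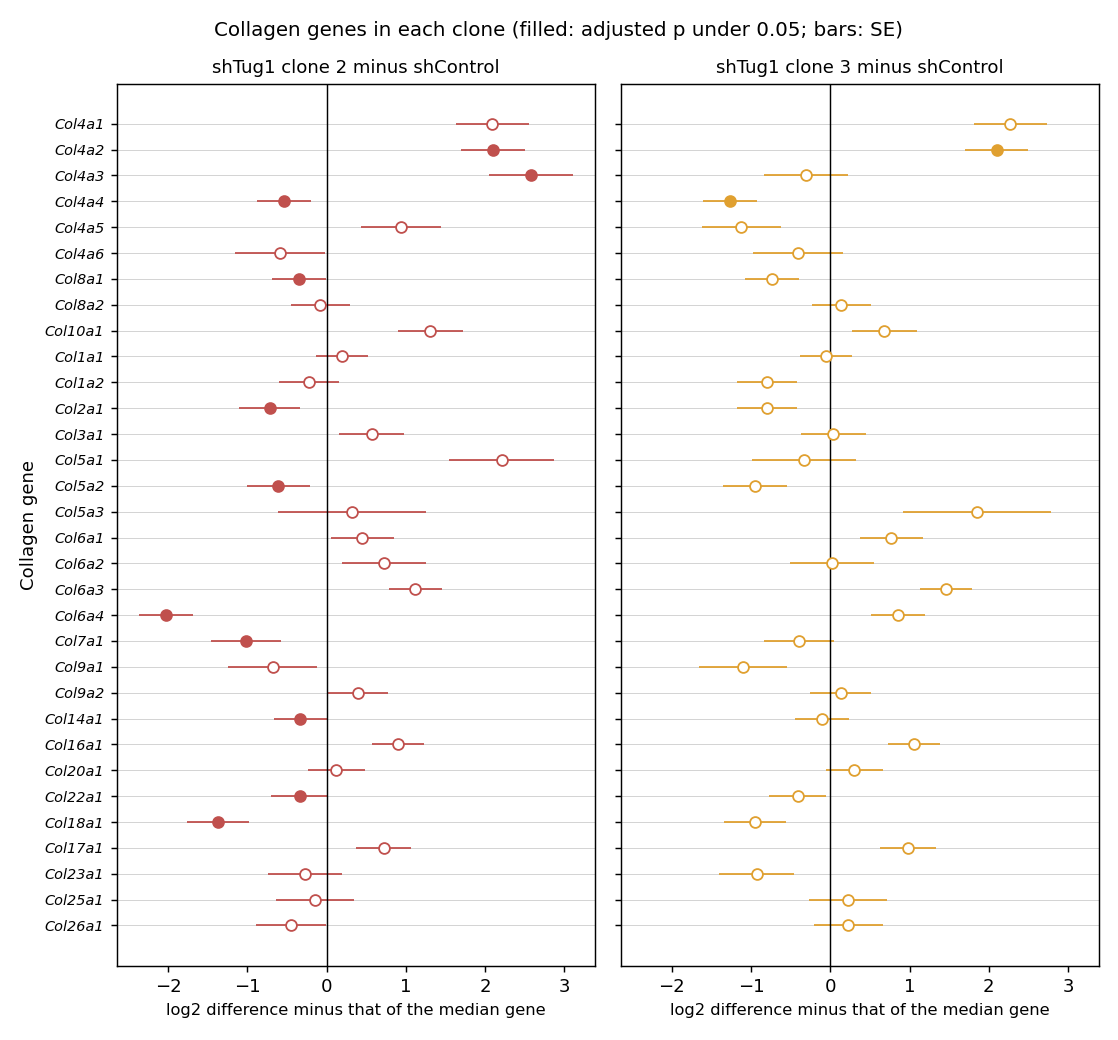
Log2 difference of each tested collagen from shControl, minus the difference of the median gene, in clone 2 (left) and clone 3 (right); bars are standard errors of the fit and filled points passed an adjusted p of 0.05. Col4a1 and Col4a2 stand above 2 in both panels, Col4a3 (2.58 in clone 2, −0.30 in clone 3) and Col5a1 (2.21 in clone 2, −0.33 in clone 3) stand on opposite sides of 0, and both panels share the shControl arrays. Col6a4, Col10a1 and Col17a1 are drawn but were not well above background in shControl, so their points give no direction.

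**Figure D4:**
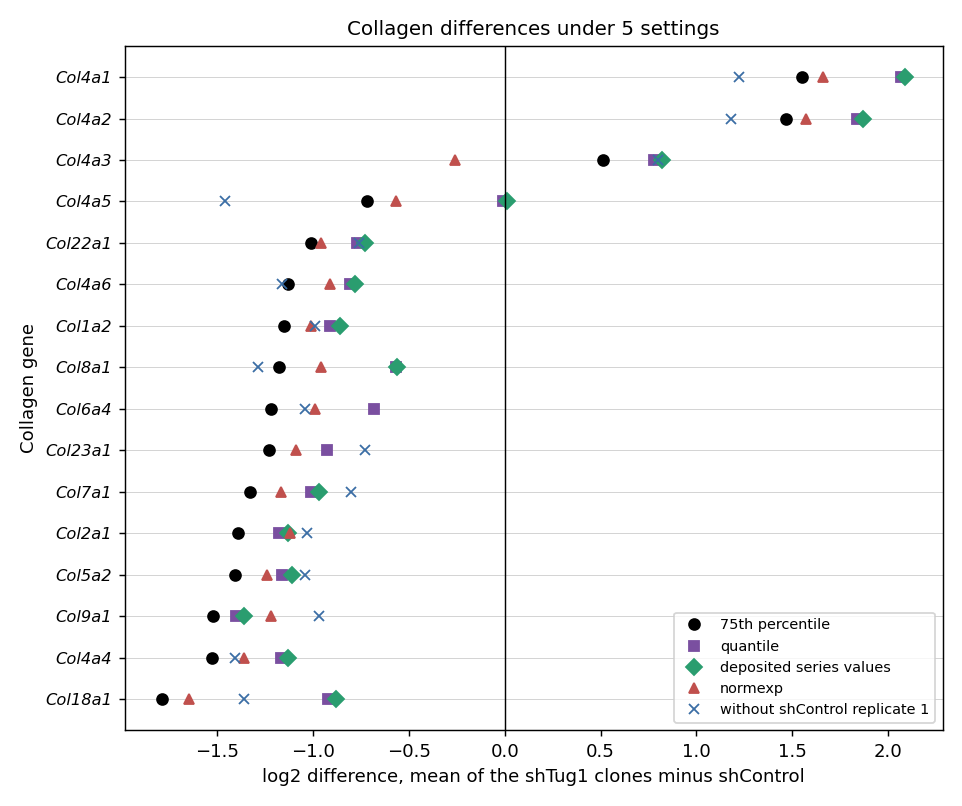
Log2 difference, mean of the shTug1 clones minus shControl, of the 6 type IV genes and the other collagens called in that comparison, under the 75th percentile scaling, quantile normalization, the deposited series values, normexp background correction and without shControl replicate 1. Col4a1 and Col4a2 stay above 1 and the falls below 0 in all 5 (Col6a4 is drawn but was dim in shControl), whereas Col4a3 and Col4a5 lie on either side of 0.

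The genes that make, mature and break down collagen were read from a list of 76, of which 75 were on the array and 67 tested. In the mean comparison 13 rose, 20 fell and 34 did not pass, against a background of 10.2% higher and 30.4% lower over all genes, and the list median was −0.63, beside −0.64 for the median gene. Clone 2 gave 14 higher and 22 lower, beside 10.2% and 33.8% of all genes, clone 3 gave 6 and 1, beside 4.35% and 4.68%, and clone 3 minus clone 2 gave 1 and 1, beside 0.345% and 0.922%. Of 7 propeptide-processing genes tested, 5 fell in the mean comparison and 1 (Pcolce2, named after its value was seen) rose. Bmp1, the protease that removes the C-propeptide of fibrillar collagens, had log2 levels of 3.34 and 3.17 in clone 2 and 4.32 and 4.17 in clone 3, against 6.49 and 5.21 in shControl. It fell by 2.10 (SE 0.40, adjusted p = 0.0138), with 2 other probes at −1.30 and −1.62. Quantile normalization gave −1.28 and the deposited series values −1.26, both past the threshold, and without clone 3 replicate 2 the call was lost (adjusted p = 0.0613). Adamts14, an N-propeptide protease, fell by 1.93 (SE 0.32, adjusted p = 0.0113), and was the 1 fall of the list in clone 3 (−1.61, adjusted p = 0.0408), where the call was lost under 5 of 13 alternatives (−1.87 to −1.03 over all 13). Its other kept probe was at −0.83 in the mean comparison, whose call was lost without clone 3 replicate 2 (adjusted p = 0.057). Pcolce, which enhances Bmp1, fell by 1.73 (SE 0.33, adjusted p = 0.0138), and this call was lost after quantile normalization (−0.58), in the deposited series values (−0.57) and without clone 3 replicate 2 (−1.63).

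Modifying and folding enzymes moved in both directions. P4hb, the beta subunit of prolyl 4-hydroxylase and a disulfide isomerase, had log2 levels of 4.19 and 4.25 in clone 2 and 3.56 and 4.02 in clone 3, against −0.47 and 1.48 in shControl. It rose by 3.50 (SE 0.52, adjusted p = 0.00974), and passed in clone 2 (3.71) and clone 3 (3.28). Pdia3, another disulfide isomerase, rose by 2.72 (SE 0.50, adjusted p = 0.0131), and P3h3, of the prolyl 3-hydroxylase family, rose in clone 3 by 2.58 (adjusted p = 0.0249). In contrast P3h1, a prolyl 3-hydroxylase, fell by 1.79 (SE 0.42, adjusted p = 0.0193) by its brightest probe, but its other probe stood 3.83 higher, so its direction is not settled (1.02 as the mean of probes, −1.09 without shControl replicate 1, and not past the threshold without either clone 3 array). For P4hb and Pdia3 shControl replicate 1 was the lowest array, and without it P4hb stood at 2.52 and Pdia3 at 1.92. That fit holds 1 shControl array and leaves out the spread of shControl, so no call is read from it. P4hb and Pdia3 were each read by 1 probe. Their mean-comparison calls were lost without clone 3 replicate 2 (adjusted p = 0.0501 and 0.0512), and the clone 3 calls of P4hb, Pdia3 and P3h3 without either clone 3 array, that of Pdia3 also without shControl replicate 1 and with no filter on dim probes.

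Of 6 crosslinking genes 2 rose and 2 fell in the mean comparison (Loxl3 by 1.46 and Pxdn by 1.31, named after their values were seen). Of 6 receptors 2 rose, and of 8 degradation genes 2 rose and 3 fell, where 10.2% of all genes rose and 30.4% fell. Of the 2 receptors that rose, Itga1 (named after its value was seen) had another kept probe at −0.92. Lox, the lysyl oxidase that starts collagen crosslinks, had log2 levels of 1.94 and 1.89 in clone 2 and 1.25 and 1.71 in clone 3, against −3.46 and 0.06 in shControl. It rose by 3.40 (SE 0.83, adjusted p = 0.0209), with shControl replicate 1 far below its partner; without that array the difference was 1.63 and without shControl replicate 2 it was 5.16. A second Lox probe gave 0.77, and the mean of probes 2.08. Loxl4, of the same family, rose in clone 3 by 2.40 (adjusted p = 0.0249). Timp3, the matrix-bound inhibitor of metalloproteinases, was read by 1 probe. It rose by 3.24 (SE 0.69, adjusted p = 0.0164), and by 1.94 without shControl replicate 1. The Lox and Timp3 calls were lost without either clone 3 array, as was that of Loxl4 in clone 3. Itgb1, the beta chain of collagen-binding integrins, rose in clone 2 by 4.12 (SE 0.90, adjusted p = 0.016), or by 2.61 without shControl replicate 1, with a second probe at 2.16. In clone 3 Itgb1 differed by 0.72, with the second probe at −0.18, and did not pass. Between the clones, Lair1, an inhibitory collagen receptor, was higher in clone 3 by 2.37 (SE 0.35, adjusted p = 0.0284), and Sec24d, a coat protein of procollagen export, lower by 2.46 on the log2 scale (SE 0.38, adjusted p = 0.0311). Of 7 basement membrane partners tested, 3 fell in the mean comparison (Agrn, Hspg2 and Lama5, named after their values were seen) and 4 did not pass, where 30.4% of all genes fell.

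**Figure D5:**
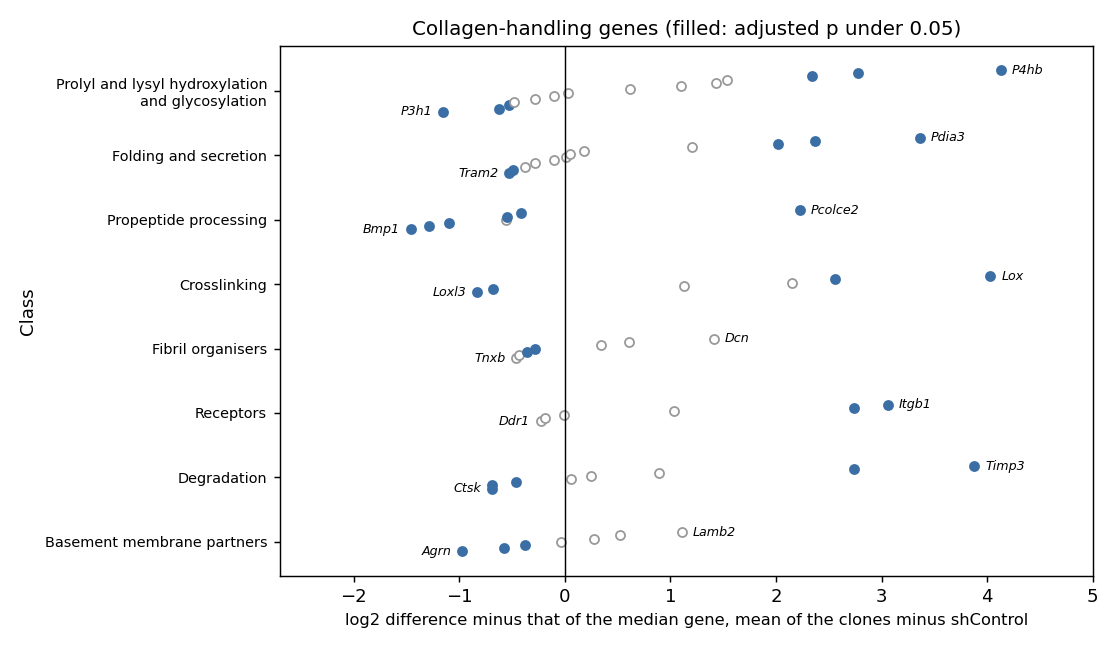
Log2 difference, mean of the shTug1 clones minus shControl, minus that of the median gene, of the 67 tested collagen-handling genes by class; each point is a gene, filled where the adjusted p is under 0.05, with the lowest and highest of each class named. P4hb, Lox and Timp3 lie near 4 on the right, and Bmp1 lies farthest left.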

How the data were processed

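Total RNA (Trizol) of 6 cultures was measured on one-colour Agilent arrays. The authors' scanner files hold intensity values per spot. The submitters' processing notes name Agilent Feature Extraction 11.0.1.1 for them, and its processed signal, already corrected for background per the file headers, was used. The deposited series table holds log2 values of 19819 probes, not centred, with column medians of 8.98 to 9.13 and correlations of 0.998 to 1 with their own arrays; their normalization and filter are not given in the sources used here.

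From the scanner files, spots marked as outliers were left out, log2 processed signals were set against the 75th percentile of each array, and repeated spots were averaged within a probe. Kept probes were those that at least 1 group had well above background on both of its arrays, and the brightest of them stood for its gene. Symbols came from the RefSeq table (GRCm38.p6) by accession. Group means were fitted with limma 3.58.1 in R 4.3.3 over 21470 genes, with 4 comparisons, Benjamini-Hochberg adjustment and a threshold of 0.05; there were 3 residual and 4.69 prior degrees of freedom. The smallest exact permutation p for 4 against 2 arrays is 0.0667, so no permutation test was run. Group errors are SDs over 2 arrays, which limits the precision, and nothing states how separate the cultures of 1 line were. The p-values rest on the spread between the 2 arrays of a line, pooled over the 3 lines. The difference between the clones is not part of that spread, so the p-values do not speak to other lines. The fit was tested on simulated data with 200 of 21470 genes changed, where it recovered large differences and few smaller ones. In the real mean comparison 40.6% of all genes passed, so the adjusted threshold acts differently there. The simulation therefore does not measure how often the fit finds a real difference in these data. A gene that did not pass is not shown to be unchanged. A bound on a fold sets each dim array at the lowest signal well above background on it, or at the probe's own signal where higher.

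The members, the gene lists and the tests were chosen with earlier results of these data known. The text names the 6 type IV genes, the collagens past the threshold and up to 4 genes a direction and comparison of the collagen-handling list; other collagens are given by class. Alternatives were quantile normalization, normexp background correction (on median signals, offset 50, since the files hold no mean signal), no filter or a stricter one, the mean over probes, the deposited values, a replicate block, the 4 shTug1 arrays alone and leaving out each array.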

Additional observations from a re-analysis of the deposited data

Results flagged for a closer look

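Of 32 collagens and 67 collagen-handling genes tested, 3 passed the test of clone 3 minus clone 2, where 1.27% of all genes did. Col6a4, a type VI chain, had a fitted difference of 3.21 (limma, adjusted p = 0.0133). Clone 2 was not well above background, so it was at least 2.43-fold higher in clone 3, and the probe entered the test only through clone 3. Lair1, an inhibitory collagen receptor, had log2 levels of −1.19 and −1.16 in clone 3, against −3.70 and −3.39 in clone 2, a difference of 2.37 (adjusted p = 0.0284). The Lair1 call was lost under 5 of 14 alternatives (1.74 to 2.52 over all 14), among them without either clone 3 array and without clone 2 replicate 1. Sec24d, a coat protein of vesicles that carry procollagen, had −2.43 and −1.92 in clone 3, against 0.02 and 0.54 in clone 2, a difference of −2.46 (adjusted p = 0.0311). The Sec24d call was lost under 5 of 14 alternatives (−2.71 to −2.05 over all 14), among them quantile normalization and without either clone 3 array. All 4 of these arrays lay on 1 slide, and each clone is 1 line.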

How the results depend on the processing

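Counts of collagens (C) and of collagen-handling genes (H) past the threshold depended on the processing, as did the shares over all genes. The cause was not tested. In the mean comparison the deposited values gave 4 C higher and 7 C lower of 27 tested, with 8 H lower, beside 10.9% and 20.6% of all genes. Quantile normalization gave 6 C lower and 6 H lower, beside 15.7%, and normexp 19 C lower and 32 H lower, beside 59.3%. In clone 2 minus shControl, normexp gave 21 C lower, beside 61.6% of all genes. H lower numbered 7 after quantile normalization and 9 in the deposited values, beside 16.5% and 22.1% of all genes. In clone 3 minus shControl, normexp gave 2 C higher, 10 C lower, 11 H higher and 12 H lower. Over all genes these shares were 6.67% higher and 25.2% lower. The stricter filter gave 2 C higher, 7 C lower and 8 H lower, beside 5.84% and 11.6%. No filter gave 0 C higher, 0 C lower, 3 H higher and 0 H lower, beside 0.928% and 0.974%. The mean over probes gave 0 C lower and 0 H lower, beside 4.33% lower, and the deposited values 3 C higher, beside 6.24% higher. In clone 3 minus clone 2, normexp gave 0 C higher and 3 H lower, beside 0.196% and 1.53% of all genes. The stricter filter gave 0 C higher, beside 0.0292%. The deposited values gave 0 C higher, 0 H higher and 0 H lower, with 0% of all genes either way. No filter gave 0 H higher and 0 H lower, beside 0.074% and 0.176%, and quantile normalization 0 H lower, beside 0.196%. The 4 shTug1 arrays alone gave 1 C lower and 3 H lower, beside 1.81%. The Tug1 probe differed by −0.26 (normexp) and 1.28 (mean over probes) in the mean comparison, 2.14 (mean over probes) and 0.98 (deposited) in clone 2, 0.42 (mean over probes) in clone 3, and −1.30 with an adjusted p of 0.0449 between the clones in the 4 arrays alone. Leaving out 1 array gave 0 to 3 C higher, 0 to 16 C lower, 0 to 14 H higher, 0 to 30 H lower and −0.03 to 0.36 for Tug1 in the mean comparison. It gave 0 to 4, 3 to 18, 10 to 16, 6 to 30 and 0.62 to 1.01 in clone 2, 0 to 3, 0 to 14, 0 to 15, 0 to 24 and −0.68 to −0.29 in clone 3, and 0 to 1, 0 to 1, 0 to 1, 0 to 3 and −1.36 to −1.23 between the clones, in the same order. Signs turned for Col4a5 in the mean comparison (0.01 in the deposited values and without shControl replicate 2, against −1.46 without shControl replicate 1) and in clone 2 (−0.59 without shControl replicate 1, −0.01 without clone 2 replicate 1, against 0.88 without shControl replicate 2), Col4a3 in the mean comparison (−0.26, normexp), P3h1 (1.02 and, in clone 2, 0.86, mean over probes), Col6a4 in clone 3 (−0.48, normexp) and Tug1 (−0.03 without shControl replicate 1). When 1 array was left out, the shares over all genes also moved in each of the 4 comparisons. In clone 3 minus shControl, falls over all genes were most common without shControl replicate 2, the fit that gave the most C lower there. The ranges of C and H without 1 array are therefore not read as a trait of these lists. Replicate numbers did not pair the arrays (correlations of deviations −0.038, 0.106 and −0.089). With the replicate number as a block, 2 collagens were higher and 11 lower in the mean comparison, beside 10.5% and 30.1% of all genes. In clone 3, 2 collagens were higher (Col4a1 at a limma adjusted p of 0.0487) and 3 H lower, beside 5.44% and 6.28% of all genes. Brightness over background limits the 11 untested collagens.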
